A study of Mus musculus with 24 samples.

Results

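The small leucine-rich proteoglycans described here are 8 genes, Dcn, Bgn, Aspn, Lum, Fmod, Prelp, Omd and Ogn, among the 36528 gene models counted in 24 RNA sequencing libraries. They were chosen by symbol, with an earlier result of the same data in view, namely a higher Dcn level in fibroblastic reticular cells of PEG-treated mice. All 8 were found by gene identifier. The libraries come from stromal cells sorted from Peyer's patches, lymphoid follicles in the wall of the small intestine. Fibroblastic reticular cells (FRC) are the fibroblasts that hold the tissue together, and cells of high endothelial venules (HEV) form the vessels through which lymphocytes enter. The groups were FRC from mice given polyethylene glycol (FRC PEG, 7 libraries), FRC from unperturbed mice (FRC control, 7), HEV cells from mice given the polymer (HEV PEG, 6) and HEV cells from unperturbed mice (HEV control, 4). PEG is an osmotic agent. It was taken freely with the drinking water at 10% w/v for 3 days, to lower fluid flow. Each library was made from 1000 sorted cells of a single mouse, by template switching and amplification. Strain, age and sex of the mice are not given in the sources used here, and the labels do not say whether FRC and HEV libraries share a mouse.

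Small leucine-rich proteoglycans are secreted matrix proteins built around a curved row of leucine-rich repeats, and many carry sulphated sugar chains. They bind collagen fibrils and set their spacing and thickness, and several also bind growth factors or receptors on cells. Decorin (Dcn), biglycan (Bgn) and asporin (Aspn) form the first class of the family, lumican (Lum), fibromodulin (Fmod), Prelp and osteomodulin (Omd) the second, and osteoglycin (Ogn) belongs to the third. In connective tissue the family is known as a product of fibroblasts.

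Library totals lay between 15823379 and 21710946 reads in FRC PEG, 12416032 and 18052362 in FRC control, 3115003 and 19948766 in HEV PEG, and 14392146 and 17160900 in HEV control. HEV PEG library 16 was the shallowest. The labelled cell types were visible in defining genes. Pdpn, the podoplanin gene of FRC, averaged 223 ± 32.4 CPM (read counts scaled to equal library totals) in FRC PEG, 221 ± 12.3 in FRC control, 0.0827 ± 0.120 in HEV PEG and 0.0661 ± 0.0518 in HEV control (SD). Madcam1, the addressin of mucosal venules, averaged 42.4 ± 19.0 CPM in FRC PEG and 78.5 ± 46.1 CPM in FRC control, against 8395 ± 2264 CPM in HEV PEG and 9368 ± 2087 CPM in HEV control. Because these are bulk libraries, fewer cells of a type and less RNA per cell cannot be told apart.

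The genes lie in neighbourhoods. In the RefSeq annotation of GRCm38.p6, Dcn and Lum are adjacent on chromosome 10, Prelp and Fmod on chromosome 1, and Aspn, Omd and Ogn stand in a row on chromosome 13, whereas Bgn lies on X next to no other member. The annotated gene Cenpp overlaps Aspn, Omd and Ogn. The counts carry no strand, so reads of Cenpp and of these 3 genes cannot be fully told apart. Cenpp itself averaged 2.91 CPM in FRC PEG, 2.41 in FRC control, 0.431 in HEV PEG and 0.891 in HEV control. Those levels are small beside Aspn and Ogn in FRC, but not beside Omd in FRC or the 3 genes in HEV.

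The 250 bases before the annotated start were available from RefSeq (GRCm38.p6) for 6 of the 8 genes. Bgn and Prelp are shown because they are the members with the largest relative level in HEV, and Ogn and Aspn because they stand on either side of Omd on chromosome 13 and had low levels in HEV. The windows are chrX:73483351-73483600 (plus strand) for Bgn, chr1:133921402-133921651 (minus strand) for Prelp, chr13:49607765-49608014 (plus strand) for Ogn and chr13:49544193-49544442 (plus strand) for Aspn. Each is written 5′ to 3′ on the strand of the gene, and capitals mark matches, on either strand, to the letters TATAAA or GGGCGG.
Bgn: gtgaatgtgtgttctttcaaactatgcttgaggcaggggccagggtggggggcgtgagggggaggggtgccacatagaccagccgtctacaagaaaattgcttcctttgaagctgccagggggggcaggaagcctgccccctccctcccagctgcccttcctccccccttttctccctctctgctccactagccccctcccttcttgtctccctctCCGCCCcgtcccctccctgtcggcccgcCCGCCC
Prelp: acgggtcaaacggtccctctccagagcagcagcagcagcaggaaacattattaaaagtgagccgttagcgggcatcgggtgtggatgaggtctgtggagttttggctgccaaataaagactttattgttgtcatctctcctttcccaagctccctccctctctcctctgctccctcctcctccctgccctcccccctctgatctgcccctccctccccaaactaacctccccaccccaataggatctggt
Ogn: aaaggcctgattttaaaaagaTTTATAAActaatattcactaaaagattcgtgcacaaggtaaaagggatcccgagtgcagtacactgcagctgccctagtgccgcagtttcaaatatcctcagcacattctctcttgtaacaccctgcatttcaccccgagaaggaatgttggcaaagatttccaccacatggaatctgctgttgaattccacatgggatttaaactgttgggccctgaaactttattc
Aspn: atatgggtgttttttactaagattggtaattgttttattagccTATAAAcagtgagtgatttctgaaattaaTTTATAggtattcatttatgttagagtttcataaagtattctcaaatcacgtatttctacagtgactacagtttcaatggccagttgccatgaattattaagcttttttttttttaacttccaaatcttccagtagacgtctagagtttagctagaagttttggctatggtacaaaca
The Bgn window held 64.4% G and C and matched GGGCGG, which 32.7% of all 32851 RefSeq promoter windows of this length also hold. The Prelp window held 55.6% G and C and neither set of letters. The Ogn window (42% G and C) and the Aspn window (30%) held TATAAA, as do 12.4% of all windows, and in Ogn the matches on the 2 strands overlap. The windows of Fmod (51.2% G and C) and Omd (38.4%), not shown, held neither set of letters. These 2 genes had the lowest mean levels of the 8 members in HEV, and also in FRC. Whether the letters go with the level in HEV was not tested. The median window held 52.4% G and C. Another motif, TGANTCA, was found in none of the 6 members' windows and in 6.75% of all windows. These matches describe letters and not bound sites.

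Dcn was among the most abundant transcripts of FRC. Per length, as the authors' deposited RPKM, it ranked between 2 and 9 of all gene models in the FRC PEG libraries (median 3) and between 4 and 10 in the FRC control libraries (median 5). Over all 14 FRC libraries the members fell in the order Dcn (mean 3293 RPKM), Lum (790), Bgn (536), Ogn (170), Aspn (164), Prelp (40.5), Fmod (14.4) and Omd (2.97). Some neighbours in this order could not be separated. Lum was above Bgn in 10 of 14 libraries and Ogn above Aspn in 7 of 14, and the ranges of both pairs overlapped. Prelp was above Fmod in 14 of 14 libraries and Fmod above Omd in 13 of 14, although the ranges over libraries met. Dcn was above Lum, Bgn above Ogn, and Aspn above Prelp with no overlap at all.

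**Figure D1:**
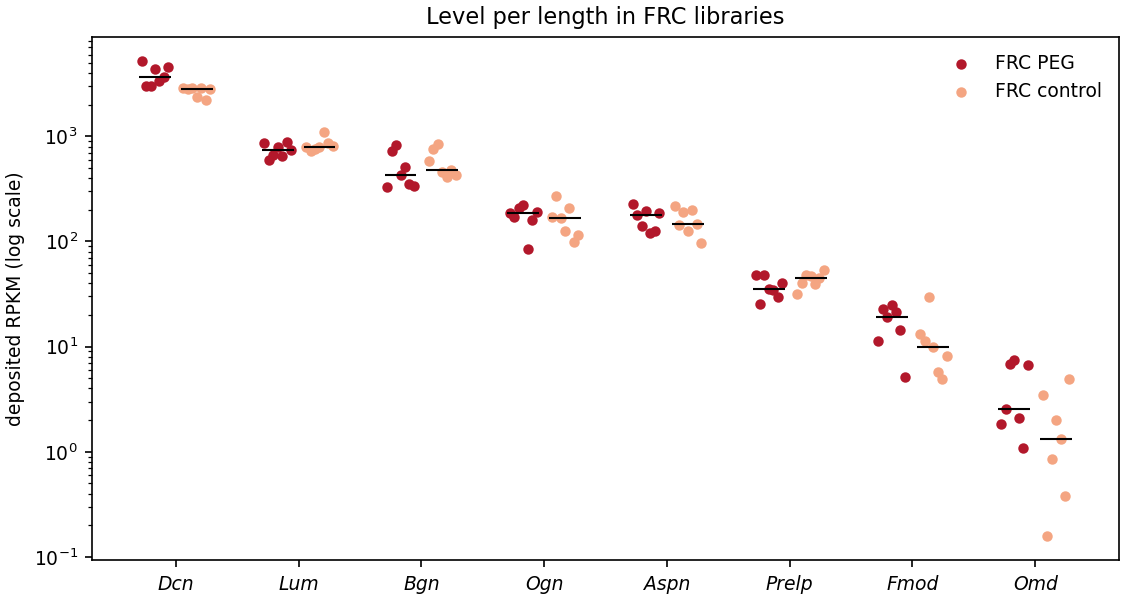
Deposited RPKM (log scale) of each member in the 7 FRC PEG and the 7 FRC control libraries, ordered by mean over all 14; points are libraries and black lines group medians. Dcn stands above every other member in each library, and Omd spreads most, from 0.157 to 7.44 RPKM.

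The 8 genes took 1.56 ± 0.227% of all reads in FRC PEG and 1.27 ± 0.123% in FRC control (SD, n = 7 each), against 0.0263 ± 0.0155% in HEV PEG (n = 6) and 0.0198 ± 0.0122% in HEV control (n = 4). In FRC, most of the family's reads were Dcn. Its share was 67.4 ± 6.00% in FRC PEG and 57.4 ± 2.67% in FRC control. In HEV most were Bgn, at 88.0 ± 5.21% in HEV PEG and 73.8 ± 9.20% in HEV control.

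The first question is how the members stood in FRC after PEG. This is the contrast that the choice of members used, so the values are a description and no test is given. Dcn, whose protein binds collagen fibrils and transforming growth factor beta, had 13871, 8186, 8021, 12246, 9154, 9940 and 12877 CPM in FRC PEG libraries 1, 2, 3, 10, 11, 18 and 19. In FRC control libraries 4, 5, 6, 12, 13, 20 and 21 it had 7863, 7352, 7624, 6463, 8118, 6082 and 7686 CPM. In CPM, 6 of the 7 FRC PEG libraries lay above every FRC control library, and PEG library 3 lay below control library 13. With the authors' size factors, in RPKM, all 7 lay above, the lowest PEG library at 3026 and the highest control library at 2903. The fitted log2 fold change, PEG over control, was 0.56 ± 0.13 (SE), a 1.48-fold difference. The labels name no sequencing pools, and 3 pools were inferred from recurring index pairs. Within these 3 pools, the log2 ratio of mean CPM was 0.40, 0.55 and 0.73, and the groups did not overlap in any of them. Each pool holds only 3 or 2 libraries per group, however. Every other member except Aspn also stood apart in at least 1 pool, and the share of all genes that do so was not counted. PEG library 1 held the highest Dcn level, and without it the log2 fold change was 0.44.

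Of the other first-class members, neither Bgn nor Aspn stood apart between FRC PEG and FRC control. Bgn, a close relative of decorin whose soluble form is a ligand of Toll-like receptors, ranged between 1043 and 2635 CPM in FRC PEG (median 1418) and between 1397 and 2698 CPM in FRC control (median 1569). The log2 fold change was -0.15 ± 0.17. Its libraries divided by library number more than by treatment. In libraries 1 to 9, 5 of the 6 FRC libraries lay above all 8 FRC libraries numbered 10 to 24, with means of 2162 ± 620 and 1404 ± 185 CPM. The exception was PEG library 1, which had the lowest Bgn and the highest Dcn level of all 14. The share of all genes that divide by library number in this way was not counted, so nothing particular to Bgn is read from it. Aspn, which bears a run of aspartates and binds transforming growth factor beta, ranged between 375 and 683 CPM in FRC PEG (median 549.6) and between 298 and 667 CPM in FRC control (median 459.9), with a log2 fold change of 0.11 ± 0.18. Both sets of libraries cover nearly the same range.

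In the second class, no member separated the groups over all 14 libraries, and the levels of Fmod and Omd scattered widely. Lum, the keratan sulphate proteoglycan best known from the cornea, ranged between 1604 and 2393 CPM in FRC PEG (median 2092) and between 1906 and 3125 CPM in FRC control (median 2189). The log2 fold change was -0.14 ± 0.11. Prelp, a heparin-binding member that links basement membranes to the matrix, ranged between 128 and 235 CPM in FRC PEG (median 179.7) and between 158 and 271 CPM in FRC control (median 227). Its log2 fold change was -0.19 ± 0.17, and 2 of the 7 PEG libraries lay above the control median. By pool the log2 ratio of mean CPM of Prelp was 0.03, -0.33 and -0.47. Fmod, which shares a collagen binding site with lumican, ranged between 19.7 and 94.8 CPM in FRC PEG (median 69.1) and between 18.5 and 109 CPM in FRC control (median 37.8). For Fmod, 6 of the 7 PEG libraries lay above the control median, yet the highest library of all was control library 6. The log2 fold change was 0.61 ± 0.35 over all libraries, 1.09 in libraries 10 to 24 and -0.03 in libraries 1 to 9. Omd, a bone matrix protein, had the lowest levels and the widest spread, between 5.43 and 38.0 CPM in FRC PEG (median 12.6) and between 0.758 and 24.8 CPM in FRC control (median 6.92). The log2 fold change was 1.17 ± 0.71, and 3 of the 7 PEG libraries lay above all controls.

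Ogn, the third-class member, ranged between 285 and 758 CPM in FRC PEG (median 606) and between 334 and 862 CPM in FRC control (median 540.3), with a log2 fold change of 0.15 ± 0.21. The groups overlapped almost fully. PEG library 11 was the lowest of the 14.

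**Figure D2:**
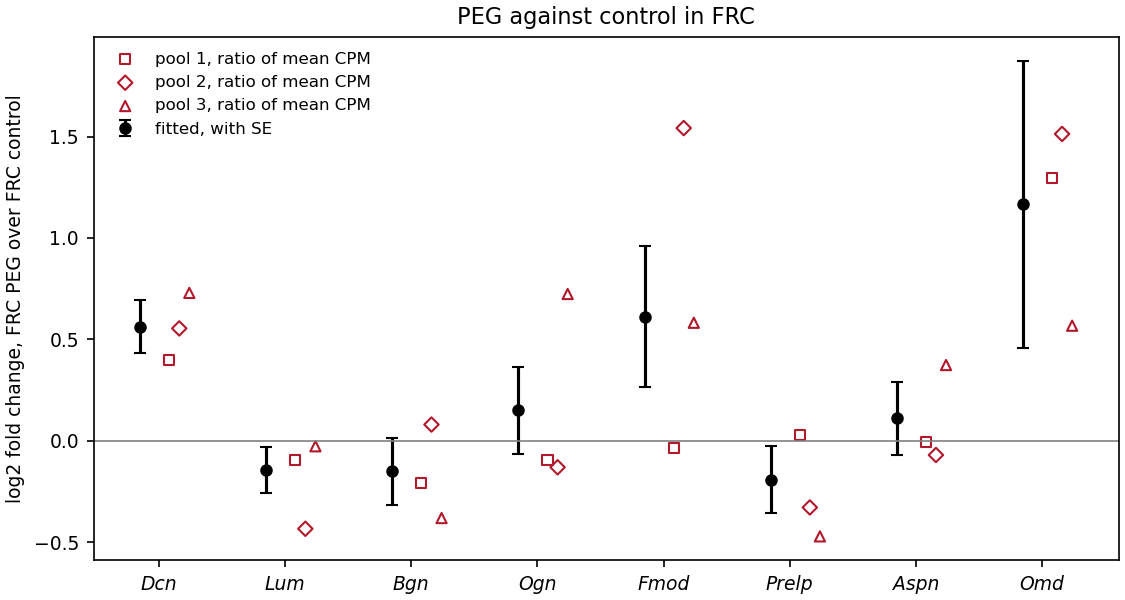
Log2 fold change of each member, FRC PEG over FRC control. Black points are fitted over 14 libraries with their SE. Open red symbols are ratios of mean CPM within each of the 3 inferred sequencing pools. The 3 Dcn symbols lie at 0.40, 0.55 and 0.73, whereas those of Fmod run between -0.04 and 1.54.

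Over the family, 5 of the 8 log2 fold changes were above 0, with a median of 0.13. Among all 14595 genes tested 51.4% were above 0, with a median of 0.01, and 0.0% of all genes passed an adjusted p of 0.05 with edgeR (989 genes had an unadjusted p under 0.05, and DESeq2 called 57). Groups that did not overlap in CPM, with PEG above control, were found for 0.0411% of genes, and for 0.0548% in RPKM. Nothing is read from these shares, because the members were chosen on this contrast. In the libraries of the same contrast the mean log2(CPM + 1) of 14 epithelium markers was 4.69 ± 2.45 in FRC PEG and 2.96 ± 2.05 in FRC control (14 and 12 of the markers averaged at least 1 CPM). Its ranges were between 1.74 and 8.12 and between 0.591 and 6.18, and the highest values were in PEG libraries 18 and 19. Epcam, a defining epithelial gene, averaged 187 ± 255 CPM in FRC PEG and 71.4 ± 126 CPM in FRC control. With the epithelium level in the fit, the log2 fold change of Dcn was 0.68. Markers of adventitial fibroblasts (8 genes, all averaging at least 1 CPM) were at 6.65 ± 0.25 in FRC PEG (6.29 to 7.00) and 6.33 ± 0.41 in FRC control (5.80 to 6.83), and the 14 pan-fibroblast markers were at 9.54 ± 0.16 and 9.59 ± 0.16. Markers of trophocytes, another fibroblast subset (5 genes), were at 8.33 ± 0.30 and 8.16 ± 0.17. Those of subepithelial fibroblasts (7 genes) were at 6.82 ± 0.47 and 7.06 ± 0.33. Marginal and follicular stroma markers (4 genes) were at 4.75 ± 0.68 and 5.28 ± 0.82. The adventitial groups stood apart in libraries 1 to 9 (6.40 to 6.84 in PEG, 5.80 to 5.96 in control) and overlapped in libraries 10 to 24. The part of these subsets in the Dcn difference was not tested.

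In HEV, PEG against control was independent of the choice of members, and no member passed the test. With few reads in HEV, 5 of the 8 members passed the filter on low counts and were tested. Of these, 0 were called, as were 0.0% of the 14308 genes tested with edgeR (886 genes had an unadjusted p under 0.05, and DESeq2 called 116, none of them members). Bgn was the only member at a substantial level. It had 248, 127, 117, 477, 324 and 115 CPM in HEV PEG libraries 7, 14, 15, 16, 22 and 23, and 173, 237, 70.0 and 88.2 CPM in HEV control libraries 8, 9, 17 and 24. The highest 3 values were PEG libraries and the lowest 2 control libraries, with the others mixed. The log2 fold change was 0.71 ± 0.47 (adjusted p = 0.844), and single libraries moved it, to 0.30 without PEG library 22, 0.40 without PEG library 16 and 1.11 without control library 9.

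Dcn in HEV was decided by single libraries. It had 0.963, 0.895, 0.602, 8.35, 20.9 and 2.08 CPM in HEV PEG libraries 7, 14, 15, 16, 22 and 23. In HEV control libraries 8, 9, 17 and 24 it had 1.08, 63.5, 2.25 and 8.06 CPM. Library 9 gave 1090 of the 1256 Dcn reads of the HEV control group. The log2 fold change was -1.45 ± 1.34 (adjusted p = 0.875), and 0.69 without library 9. Library 9 also had the highest level of pan-fibroblast markers of the 10 HEV libraries, 4.42 as mean log2(CPM + 1), where the other 9 lay between 2.40 and 3.40. The part of fibroblast RNA in its Dcn level was not tested.

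Lum followed the same libraries, with its highest level, 7.87 CPM, in HEV control library 9 and 2.89 CPM or less in every other HEV library. Its log2 fold change was -1.24 ± 1.19 (adjusted p = 0.878), and -0.11 without library 9. Without PEG library 16 or 22 Lum did not pass the filter. Prelp ranged between 0.830 and 29.9 CPM in HEV PEG (median 17.0), and had 51.3, 41.1, 22.3 and 3.96 CPM in HEV control libraries 8, 9, 17 and 24. No HEV PEG library reached the control median of 31.7 CPM, yet the groups overlapped and the log2 fold change was -0.76 ± 0.82 (adjusted p = 0.894), and -2.23 without PEG library 22. Aspn ranged between 0 and 7.78 CPM in HEV PEG (median 2.96), and had 0, 10.8, 9.27 and 2.15 CPM in HEV control libraries 8, 9, 17 and 24. Its log2 fold change was -1.27 ± 1.55 (adjusted p = 0.906), and -0.45 without control library 17.

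The remaining 3 members were at the edge of detection in HEV. Ogn had 149 reads in HEV PEG and 6 in HEV control, and 138 of the 149 were in PEG library 23. Fmod had 12 reads in HEV PEG and 1 in HEV control, and Omd 2 in each group. A count of 0 in a library allows up to 3 reads, between 0.150 and 0.963 CPM in HEV PEG and between 0.175 and 0.208 CPM in HEV control. A 0 thus does not exclude levels up to these. The HEV fold changes of Dcn, Lum, Bgn, Prelp and Aspn stand beside those in FRC without a test of the difference between the cell types.

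**Figure D3:**
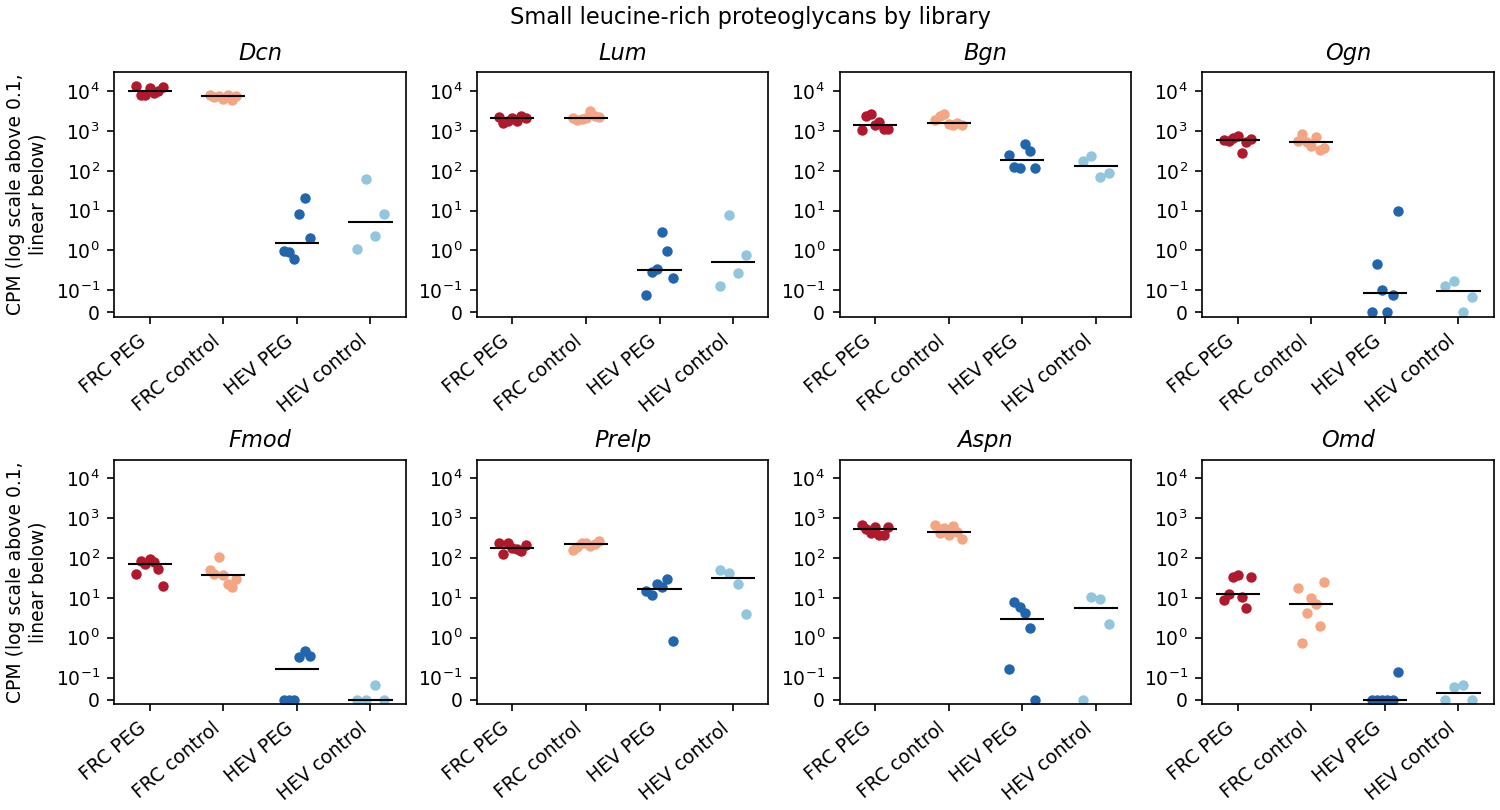
CPM of each member in every library (points), with FRC PEG left of FRC control and HEV PEG left of HEV control, and group medians (lines); the axis is logarithmic above 0.1 CPM and linear below. In all 8 panels every FRC library lies above every HEV library, and the single high HEV points are control library 9 for Dcn and Lum and PEG library 23 for Ogn.

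Between the cell types, each member had its higher levels in FRC, both among PEG libraries and among control libraries, 2 comparisons that have no library in common. Of the 8, Dcn, Aspn, Lum, Bgn and Prelp passed the filter on low counts within HEV as well, and Ogn, Fmod and Omd entered the tests only through FRC, where they are high. The filter within HEV took both treatments together, and Lum passed it narrowly, with 37 reads in HEV PEG and 152 in HEV control. A difference was thus built into the test of Ogn, Fmod and Omd, and largely into that of Lum. The values of these members are given with no p. Dcn, Aspn, Bgn and Prelp were each called higher in FRC under PEG, where 14.4% of 14991 genes were (26.8% in either direction). Among controls each of them was too, where 14.2% of 15743 genes were (24.6% in either direction). For each of them every FRC library lay above every HEV library in both comparisons, as for 9.4% of all genes under PEG and 11.3% among controls. The median log2 fold change of all genes, FRC over HEV, was 0.08 under PEG and 0.16 among controls. Since FRC and HEV libraries may stem from the same mice, the p-values treat as independent what the labels leave unstated.

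The sizes varied widely among members. Dcn was higher in FRC by a log2 fold change of 11.45 ± 1.06 under PEG (adjusted p = 6.88e-06) and of 9.57 ± 1.18 among controls (adjusted p = 0.000246). Aspn was higher by 8.17 ± 0.93 under PEG (adjusted p = 3.26e-05) and by 6.58 ± 1.12 among controls (adjusted p = 0.00176). Lum had a log2 fold change of 11.95 ± 0.70 under PEG and of 10.85 ± 1.03 among controls, against 37 and 152 HEV reads. Ogn had a log2 fold change of 9.45 ± 1.26 under PEG and of 12.18 ± 0.49 among controls, against 149 and 6 HEV reads. For these 4 members every FRC group mean was at least 493.3 CPM and every HEV group mean at most 18.7 CPM. Single HEV libraries move the values. The Ogn fold change under PEG was 11.75 without HEV PEG library 23, and among controls, without HEV control library 9, the log2 fold change was 11.13 for Dcn, 12.51 for Lum and 7.32 for Aspn.

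For Fmod and Omd the HEV groups held a handful of reads, and the fitted fold changes depend on them. The ratio of pooled Fmod levels was 421 under PEG (95% counting interval 241 to 815). Among controls it was 2586, with an interval of 464 to 102155, as HEV control held 1 read, in library 17. The pooled ratio of Omd was 796 (220 to 6576) under PEG and 307 (84.7 to 2534) among controls, each against 2 HEV reads, both in library 23 under PEG. These intervals are exact and cover counting error only.

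Bgn and Prelp had the smallest fold changes between the cell types of the 8 members. Bgn was higher in FRC by a log2 fold change of 2.63 ± 0.39 under PEG, 6.18-fold (adjusted p = 0.000166), and by 3.55 ± 0.28 among controls, 11.7-fold (adjusted p = 3.55e-06). Prelp was higher in FRC by 3.46 ± 0.57 under PEG, 11.0-fold (adjusted p = 0.000415), and by 2.87 ± 0.53 among controls, 7.32-fold (adjusted p = 0.002). Under PEG the 95% intervals of the log2 fold change were 1.79 to 3.47 for Bgn and 2.23 to 4.70 for Prelp, and the lowest bound among the other 6 members was 6.14. Among controls they were 2.93 to 4.17 for Bgn and 1.70 to 4.04 for Prelp, and the interval of Bgn met that of Aspn, whose lower bound was 4.08. No test between members was made.

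**Figure D4:**
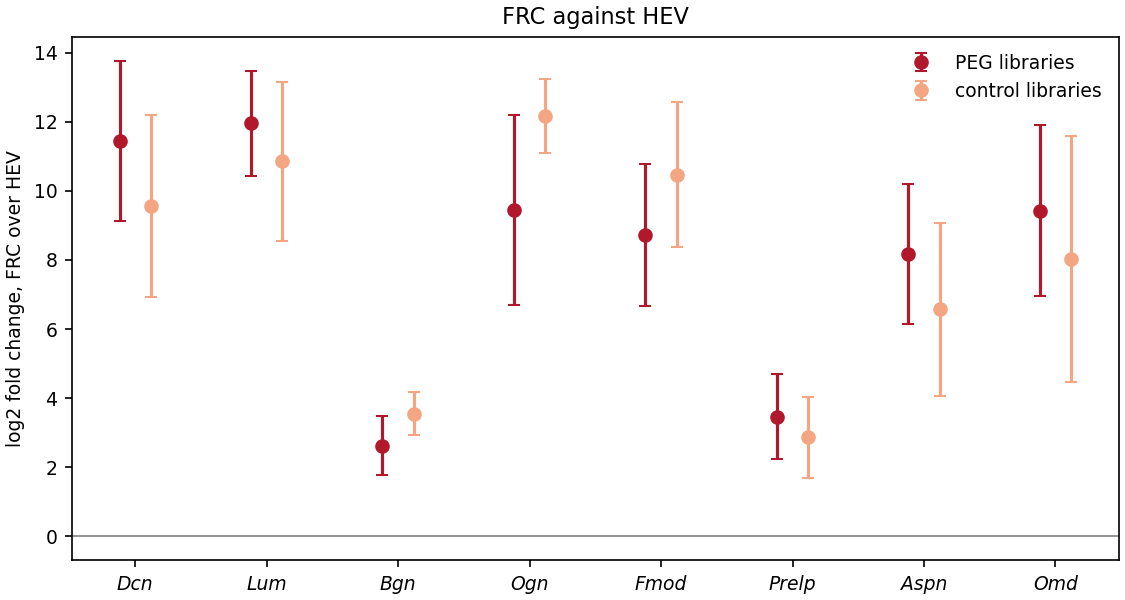
Fitted log2 fold change of each member, FRC over HEV, in PEG libraries and in control libraries, with 95% intervals. Bgn and Prelp lie between 2.63 and 3.55, and the other 6 members between 6.58 and 12.18. The filter on low counts built in the difference of Ogn, Fmod and Omd, and largely that of Lum. Their fitted values and intervals rest on few HEV reads and are shown as a description.

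Set against the mean of FRC of the same treatment, each HEV library held between 3.82 and 29.4% of the Bgn level (median 8.65%). For Prelp the share was between 0.444 and 23.5% (median 10.1%), and for Dcn between 0.00567 and 0.869% (median 0.0252%). The same measure for 14 pan-fibroblast markers gives what other fibroblast genes did in these libraries. Its median over the markers lay between 0.0325 and 2.39% in the 10 HEV libraries, with Pdgfra at 0.0601%, Pdpn at 0.0343% and Col1a1 at 0.336% on average. Of the 14 markers 10 averaged under 4%, Fstl1, Sparc and C1s1 averaged 13.1, 13.2 and 15.3%, and Thy1, the 1 marker under 1 CPM in FRC, 95.6%. Smooth muscle and pericyte markers, 10 genes, were at 7.55 ± 0.24 in FRC PEG and 7.58 ± 0.25 in FRC control as mean log2(CPM + 1), against 2.03 ± 0.67 in HEV PEG (1.12 to 2.96) and 2.79 ± 1.62 in HEV control (0.62 to 4.39). The part of cells other than venule cells in the Bgn and Prelp levels of HEV was not tested.

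**Figure D5:**
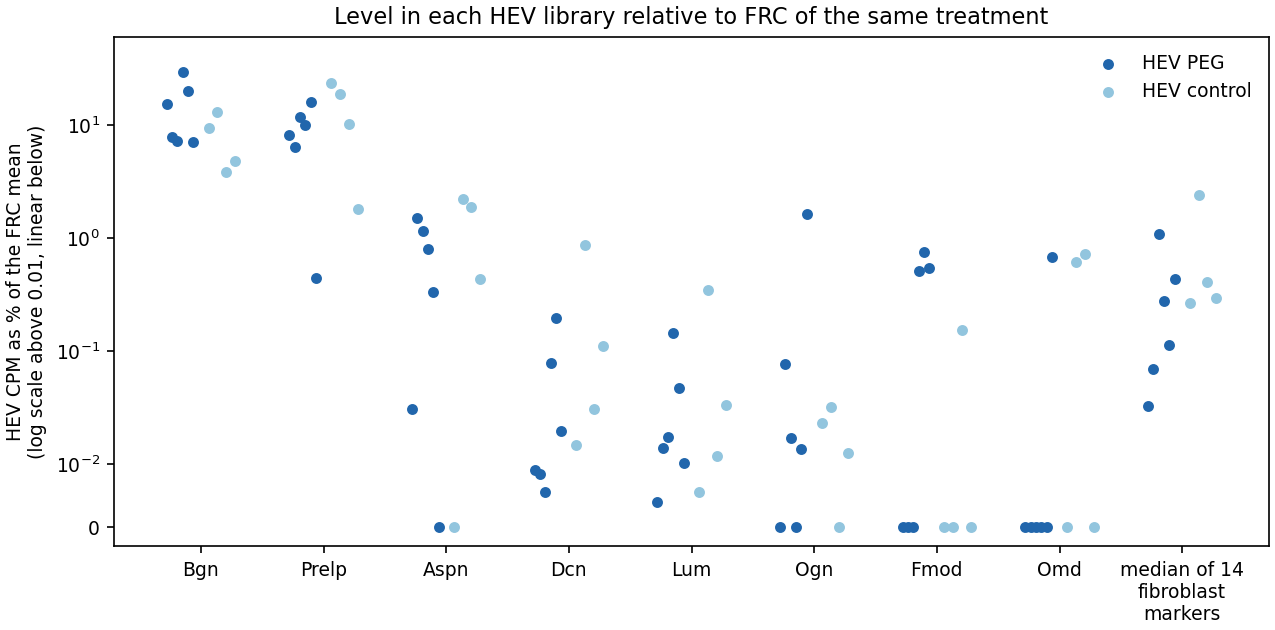
Level of each member in each HEV PEG and HEV control library as a percentage of the mean CPM of FRC of the same treatment, beside the median over 14 fibroblast markers; the axis is logarithmic above 0.01% and linear below. Bgn lies between 3.82 and 29.4% in all 10 libraries, above the marker median, and Dcn and Lum stay under 1%.

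Within HEV, the order per length was not that of FRC. Bgn was first in 10 of 10 HEV libraries, at a mean of 61.9 RPKM. Prelp (4.40 RPKM) and Dcn (4.03 RPKM) followed, with Prelp above Dcn in 6 of 10. Aspn (1.37), Lum (0.515), Ogn (0.318), Fmod (0.0329) and Omd (0.00536) came after, with overlapping ranges between each pair of neighbours.

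Outside the 8 members, most other genes of the family were low or at 0. Of 10 such genes, 5 were tested under PEG and 6 among controls, and 3 were called higher in FRC in each, none lower. These 3 were Podn (podocan), Ecm2 and Epyc (epiphycan). Of all genes 14.4% were higher in FRC under PEG and 14.2% among controls. Within HEV 2 of the 10 passed the filter on low counts. Podn and Epyc entered these tests through FRC alone, so the filter fixed their direction, and no p is given for them. No support is drawn from the counts or from the list's median. Podn averaged 55.8 ± 32.3 CPM in FRC PEG and 73.5 ± 44.7 in FRC control, against 18 reads in HEV PEG and 3 in HEV control. Ecm2, the neighbour of Aspn, averaged 115 ± 52.7 CPM in FRC PEG and 88.3 ± 35.4 in FRC control, against 9.99 ± 7.93 in HEV PEG and 12.5 ± 8.18 in HEV control. Its log2 fold change was 3.59 ± 0.54 under PEG (adjusted p = 0.000175) and 3.01 ± 0.59 among controls (adjusted p = 0.0028), near those of Bgn and Prelp. Epyc varied widely in FRC, at 20.8 ± 16.0 CPM in FRC PEG (0 to 45.0) and 26.4 ± 32.4 CPM in FRC control (0 to 93.2), and had 0 reads in all HEV libraries. Against a floor of 3 reads over the HEV group the pooled FRC level was at least 529-fold higher under PEG and at least 559-fold higher among controls. Kera, the neighbour of Lum, had 0 reads in all 24 libraries. The list's median log2 fold change was 3.59 under PEG and 3.66 among controls, with Epyc at its bound.

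Fibrillar collagens and their partners, a list that also holds processing enzymes, were compared in the same way. Of 21 genes tested, 20 were called higher in FRC and 1 lower, under PEG as among controls, with medians of 8.87 and 8.01. Of all genes 14.4% were higher in FRC under PEG and 14.2% among controls. Of the list's 22 genes 16 passed the filter on low counts within HEV, so for some the filter fixed the direction and no support is drawn from the counts. Col1a1, one of those that did not pass within HEV, averaged 1687 ± 769 CPM in FRC PEG and 1835 ± 771 in FRC control, against 0.588 ± 0.545 in HEV PEG and 13.9 ± 24.98 in HEV control. Col14a1 was higher in FRC by a log2 fold change of 7.81 ± 0.61 among controls (adjusted p = 2.77e-06). The gene lower in FRC was Tll1, a tolloid-like protease, which did not pass the filter within FRC. It had 218 reads in FRC PEG and 154 in FRC control, against 6968 in HEV PEG and 4137 in HEV control.

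Enzymes that build and sulphate the sugar chains were divided. Of all genes 14.4% were higher and 12.5% lower in FRC under PEG, and 14.2% higher and 10.4% lower among controls. Under PEG 3 of 24 were called higher and 7 lower in FRC, and among controls 5 of 25 were higher and 4 lower, with medians of -0.00 and 0.51. Of the list's 30 genes 22 passed the filter on low counts within HEV. For some the filter thus fixed the direction, and no support is drawn from the counts. Dse, the epimerase that turns chondroitin into dermatan sulphate, was higher in FRC by 5.15 ± 0.67 under PEG (adjusted p = 5.16e-05) and 5.64 ± 0.44 among controls (adjusted p = 2.55e-06). Csgalnact1, which starts chondroitin chains, was lower in FRC by -4.62 ± 1.28 under PEG (adjusted p = 0.0175) and -4.39 ± 0.63 among controls (adjusted p = 0.000336). Chpf, a chondroitin polymerising factor, was higher in FRC, and B4galt4 was lower, in both.

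Of the receptors and growth factors that members of the family bind, 10 of 18 were higher and 3 lower in FRC under PEG, and 8 of 18 higher and 2 lower among controls. The share of lower genes lies near that of all genes given above. The list's medians were 1.43 and 1.19. Within HEV 15 of its 20 genes passed the filter on low counts, so here too no support is drawn from the counts. Bmp4 was higher in FRC by 3.31 ± 0.35 under PEG (adjusted p = 7.17e-06) and 4.75 ± 0.19 among controls (adjusted p = 1.74e-08). Kdr, the endothelial receptor for vascular growth factor, did not pass the filter within FRC, with 77 reads in FRC PEG and 59 in FRC control, against 11511 in HEV PEG and 10303 in HEV control. Under PEG, Met was lower in FRC by -2.79 ± 0.63 (adjusted p = 0.00417) and Tlr2 by -1.88 ± 0.43 (adjusted p = 0.00448). Neither was called lower among controls. Cd14, the co-receptor of Tlr2, was lower among controls by -2.17 ± 0.49 (adjusted p = 0.00685), and was not called lower under PEG. With PEG against control, no gene of these 4 lists was called in FRC or in HEV.

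The genes whose levels went most alike with each member were named from 11682 genes by Pearson's r over the 14 FRC libraries, after the means of libraries 1 to 9 and of 10 to 24 had been subtracted. The libraries share their pools and their treatment groups, and no p is given. For Dcn they were Ginm1 (r = 0.930), Vps26a (0.924) and Idh3b (0.918), for Bgn Tubb4a (0.920), P2ry12 (0.906) and Pabpn1 (0.889), and for Aspn Hs3st1 (0.923), Aopep (0.894) and Srsf7 (0.892). For Lum they were Shld2 (0.858), Abcc3 (0.789) and Exosc1 (0.776), and for Fmod Pcolce (0.919), Taf2 (0.814) and Wdr83 (0.806). For Prelp they were Adgrl1 (0.878), Dmac2l (0.865) and Pf4 (0.861), for Omd Ap4e1 (0.863), Rpl14 (0.837) and Moap1 (0.824), and for Ogn Cd164 (0.923), Pnrc2 (0.897) and Rab18 (0.880). The likeness of Rab18 came from libraries 10 to 24 (r = 0.957), with 0.368 in libraries 1 to 9. No member was among the 3 genes named for another member.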

How the data were processed

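RNA of sorted FRC and HEV cells was sequenced in 24 libraries. Per the labels' protocols, low-quality, adapter and ribosomal reads were discarded and unique alignments kept, and per the submitters' processing notes GSNAP was used with the mouse build mm9. The protocol text names a human build, whereas the identifiers are of mouse genes. Per the file headers each deposited file gives a count and an RPKM value per gene model. The authors' RPKM follows the count over their size factor for all 8 members (relative tolerance 1e-06). Symbols came from RefSeq GRCm38.p6, which named 85.0% of identifiers, holding 97.3% of reads.

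Counts were filtered (filterByExpr, count minimum 10), scaled by TMM and tested with edgeR's quasi-likelihood test (edgeR 4.0.16, limma 3.58.1, R 4.3.3; two-sided, robust), with the sequencing pool as covariate, and adjusted by Benjamini-Hochberg over all genes (threshold 0.05). Each SE was derived from the fold change and its F statistic, and 95% intervals use the test's degrees of freedom. Pools (libraries 1 to 8, 9 to 16 and 17 to 24) were inferred from recurring index pairs. CPM are counts scaled to equal library totals. The code was tested on simulated data. Alternatives were other size factors, no filter, DESeq2 1.42.0, other covariates, parts of the libraries and each library left out. No libraries of a group held identical counts.

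The members, the gene and marker lists and the alternatives were chosen with earlier results of these data known. All 8 members were named throughout, and of each list up to 3 called genes of smallest p per direction and comparison could be named. Tests within 1 cell type treat the libraries as coming from different mice, which the labels do not state. Reads carry no molecular identifiers, so intervals and floors cover counting error only.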

Additional observations from a re-analysis of the deposited data

Results flagged for a closer look

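In 32 groups of values (8 members in 4 groups, as log2(CPM + 1)), 5 had a highest or lowest library far from the others. Chance alone flags about 1 in 20 groups of continuous values, a rate that does not hold where all other libraries are at 0 and 1 or 2 reads are enough, as for Fmod and Omd below. HEV PEG library 23 accounts for 3 of them. There Ogn was at 3.40 (9.55 CPM), with the other 5 libraries between 0 and 0.53. Prelp was at 0.87 (0.830 CPM), with the others between 3.70 and 4.95. Omd was at 0.19 from 2 reads, with the others at 0. In FRC PEG, library 11 was low in Ogn, at 8.16 (285 CPM), against 9.05 to 9.57 in the other 6. In HEV control, library 17 held the group's only Fmod read, at 0.095.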

How the results depend on the processing

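No paired analysis was possible because each library has a number of its own and the labels tie no libraries of different groups to 1 mouse. The Dcn log2 fold change in FRC lay between 0.41 (libraries 1 to 9 alone) and 0.68 (epithelium level in the fit), and between 0.44 and 0.63 with each library left out. In FRC, libraries 1 to 9 alone turned the sign of Ogn (-0.09), Fmod (-0.03) and Prelp (0.04).

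In HEV the uncalled PEG fold changes turned sign in libraries 10 to 24 alone (Dcn 1.10, Lum 0.10, Prelp 0.14) and with the pan-fibroblast level in the fit (Dcn 0.85, Lum 0.17, Prelp 0.69). Prelp ranged from -2.23 to -0.48 and Bgn from 0.30 to 1.11 with each library left out. Leaving out libraries 9 and 16 together, a choice made after seeing the data, gave 0.71 for Dcn, and leaving out each library gave -2.46 to 0.69. The cause was not tested.

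FRC over HEV, Dcn, Aspn, Bgn and Prelp stayed called in both comparisons under every alternative but libraries 1 to 9 alone. Under PEG those libraries hold only 1 HEV library, number 7, so no call is read there. The log2 fold change of Bgn was 2.99 in that fit. Among controls they hold HEV libraries 8 and 9 alone, and Aspn was not called (adjusted p = 0.07). Over all genes, the 0 calls of PEG against control were 177 in FRC and 141 in HEV without a filter, and 57 and 116 with DESeq2. The 3869 calls among controls fell to 1477 with libraries 1 to 9 and to 2276 with libraries 10 to 24. Few HEV reads limit Lum, Ogn, Fmod and Omd, whose calls rest on their FRC level and are not counted here.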
